A study of Mus musculus with 7 samples.

Results

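The β-cell transcription factors described here are 9 regulators of islet endocrine identity, namely Pdx1, Nkx6-1, Nkx2-2, Mafa, Neurod1, Pax6, Isl1, Foxa2 and Rfx6, measured in islets of Langerhans with and without Wnt4 in β-cells. They were found by matching the transcript accession of each non-control array spot to these symbols and keeping every probe, which gave 14 probes for 9 of the 22911 genes that could be named on the array. Pax6 had 4 probes, Nkx2-2 and Isl1 had 2 each, and the other 6 genes had 1 each. None of the 14 probes differed between Wnt4βKO and control islets beyond the spread between samples, and the groups overlapped for all 14.

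Islets came from 7-week-old male mice crossed to C57BL/6J, with 1 single-colour Agilent array per sample. The 3 control samples were Pdx1CreER Tg-; Wnt4fl/fl littermates, which carry the floxed Wnt4 alleles without the Cre transgene. The 4 Wnt4βKO samples carried both the floxed alleles and Pdx1CreER, a tamoxifen-inducible Cre under the promoter of Pdx1, itself one of the 9 factors. All mice of both groups received tamoxifen by gavage at 4 to 5 weeks of age, and the comparison asks which islet transcripts depend on WNT4 in β-cells. Since no group carried Cre with intact Wnt4, the presence of the transgene and the loss of Wnt4 cannot be told apart. The recombination that Pdx1CreER can drive in islet cells other than β-cells was not measured here.

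β-cells keep their identity through a network of transcription factors that bind together at the enhancers and promoters of the insulin genes and of genes for glucose sensing, and that also hold each other's transcription in place. PDX1, NKX6-1, PAX6 and ISL1 carry homeodomains that recognise short sequences around the core TAAT, NKX2-2 carries a homeodomain of the NK2 class, which recognises another core, NEUROD1 is a basic helix-loop-helix protein that pairs with E proteins at E boxes, MAFA is a basic leucine zipper protein, FOXA2 is a forkhead protein and RFX6 is a winged-helix protein. Loss of several of these factors from adult mouse β-cells lowers insulin and glucose transporter transcripts and lets genes of other islet cell types come up.

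The promoter sequences of a pair of classical targets are shown because both targets return among the results, with the TAAT core and the E box marked. Ins1 encodes one of the mouse insulins, and Slc2a2 encodes GLUT2, the main glucose transporter of mouse β-cells. Each line gives the 250 bases before the RefSeq transcription start (assembly GRCm38.p6, plus strand, 5′ to 3′), at chr19:52264047-52264296 for Ins1 and chr3:28697653-28697902 for Slc2a2. Capitals mark matches on either strand to TAAT (read as ATTA on the other strand) and to the E box CATCTG, which reads CAGATG on the other strand.
Ins1: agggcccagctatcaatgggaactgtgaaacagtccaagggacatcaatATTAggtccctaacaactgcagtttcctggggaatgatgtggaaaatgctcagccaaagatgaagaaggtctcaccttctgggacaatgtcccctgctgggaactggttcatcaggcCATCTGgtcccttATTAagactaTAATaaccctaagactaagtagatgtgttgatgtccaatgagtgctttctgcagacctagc
Slc2a2: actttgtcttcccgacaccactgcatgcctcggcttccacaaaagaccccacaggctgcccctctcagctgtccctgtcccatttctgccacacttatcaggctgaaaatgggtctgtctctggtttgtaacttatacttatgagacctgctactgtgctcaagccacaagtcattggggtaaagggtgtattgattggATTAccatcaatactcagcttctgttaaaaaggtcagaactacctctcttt
The Ins1 window held TAAT matches that began 201, 71 and 61 bases before the start and a CATCTG match that began 84 bases before it, with no overlap between them. The Slc2a2 window held 1 TAAT match, 51 bases before the start. Such short words are common: among all 32851 windows of this length in the RefSeq table, 54.9% held TAAT and 14.4% held CATCTG on either strand. A match is a description of the letters and does not show binding. Of the 9 factors, 8 matched the promoter table, with 11 windows.

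Each array gave a signal well above background at 45.5% to 49.0% of its spots, with no saturated spot and all 7 arrays on 1 slide. Signals below are normalised log2 values, given for the controls in the order of their labels, 2, 3 and 4, and for Wnt4βKO in the order 1 to 4. The Wnt4 probe A_66_P139703 read 11.56, 11.17 and 11.77 in controls and 11.30, 10.80, 11.04 and 10.92 in Wnt4βKO. The groups overlapped, and the Wnt4βKO mean was 71.3% of the control mean (log2 difference -0.49 ± 0.17 SE, limma unadjusted p = 0.0232, adjusted p = 0.651). Whether this probe lies in the deleted part of Wnt4 is not given in the sources used here. Markers of other cells moved as well: 8 of 27 measured acinar genes were lower in Wnt4βKO islets at an unadjusted p below 0.05, which held for 4.43% of all 13666 genes tested with 1 probe each, and the list's mean log2 signal ran from 13.11 to 13.23 in controls and from 12.04 to 12.96 in Wnt4βKO. The lowest acinar signals were those of Wnt4βKO replicate 1 (12.04) and replicate 4 (12.31). The mean over the duct markers ran from 8.96 to 9.02 in controls and from 8.39 to 8.94 in Wnt4βKO, with 1 of 9 genes lower at an unadjusted p below 0.05. All 8 tested immune markers had point estimates above 0 (median 0.40, 1 higher at an unadjusted p below 0.05), and their mean ran from 7.78 to 7.99 in controls and from 7.91 to 8.87 in Wnt4βKO, highest in replicate 4. None of the tested endothelial (8), mesenchymal (8), α-cell (6) or δ- and PP-cell (4) markers passed that threshold, which 8.94% of all genes did. Some endothelial and mesenchymal markers lay near the floor of the scale and some mesenchymal ones varied widely, so lists of this size say little. The part of these cells in the results was tested only for the acinar mean, as a covariate, and since its groups did not overlap that fit cannot fully separate the acinar signal from the genotype. In whole islets, fewer cells of a type and less RNA per cell cannot be told apart.

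Pdx1, the homeodomain factor needed to form the pancreas and later an activator of the insulin and GLUT2 genes, read 7.23, 7.82 and 7.08 in controls and 7.37, 7.17, 7.74 and 7.17 in Wnt4βKO. Control replicate 3 and Wnt4βKO replicate 3 stood above the other arrays, and the groups overlapped over nearly their whole range. The group means were 7.38 ± 0.39 (SD, n = 3) and 7.36 ± 0.27 (SD, n = 4), a difference of -0.01 ± 0.21 SE. Its 95% interval of -0.51 to 0.48 holds values from 0.704-fold to 1.40-fold of control (limma adjusted p = 0.996).

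Nkx6-1, which maintains the β-cell state and represses genes of α-cells, was the steadiest of the factors with a single probe. It read 10.94, 10.92 and 11.07 in controls and 10.97, 10.78, 11.09 and 11.09 in Wnt4βKO, so that all 7 values lay within 1.24-fold of each other. The means were 10.98 ± 0.08 (SD, n = 3) and 10.98 ± 0.15 (SD, n = 4). The difference of 0.01 ± 0.10 SE had a 95% interval of -0.22 to 0.24, which is 0.857-fold to 1.18-fold of control (limma adjusted p = 0.995).

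Nkx2-2, another homeodomain factor that keeps β-cells from taking on other islet fates, was read by 2 probes. The brighter one, A_51_P197718, gave 8.85, 8.71 and 8.44 in controls and 8.29, 9.10, 9.27 and 9.20 in Wnt4βKO. Wnt4βKO replicates 2, 3 and 4 lay above every control, while Wnt4βKO replicate 1 was the lowest of the 7 arrays. The difference was 0.30 ± 0.24 SE (95% interval -0.27 to 0.87, limma adjusted p = 0.869). Without Wnt4βKO replicate 1 it was 0.52, with a limma unadjusted p of 0.00450 and an adjusted p of 0.720. The second probe, A_55_P1985905, did not set that array apart: it gave 7.64, 7.62 and 7.26 in controls and 7.89, 7.41, 7.89 and 7.45 in Wnt4βKO, with replicates 1 and 3 the highest. Its difference was 0.15 ± 0.17 SE (95% interval -0.24 to 0.54, limma adjusted p = 0.900).

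Mafa, the leucine zipper activator of insulin transcription that rises as β-cells mature, read 8.81, 8.26 and 7.96 in controls and 8.72, 8.13, 8.49 and 8.46 in Wnt4βKO. The controls spanned both the highest and the lowest value. With means of 8.34 ± 0.43 (SD, n = 3) and 8.45 ± 0.24 (SD, n = 4), the difference was 0.11 ± 0.22 SE. The 95% interval of -0.40 to 0.61 holds values from 0.756-fold to 1.53-fold of control (limma adjusted p = 0.953).

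Neurod1, the helix-loop-helix factor of endocrine differentiation and β-cell maturity, varied most between samples of the same group. It read 8.59, 8.16 and 7.34 in controls and 8.56, 8.14, 7.89 and 7.38 in Wnt4βKO, a 2.39-fold range over the 7 arrays. Both groups covered nearly the same span. The difference of -0.04 ± 0.36 SE had a 95% interval of -0.87 to 0.79 (limma adjusted p = 0.991), so that a change of up to 0.547-fold or 1.73-fold of control lies inside it. The residual SD of this probe was 0.557 on the log2 scale, larger than that of 97.8% of the tested probes.

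**Figure D1:**
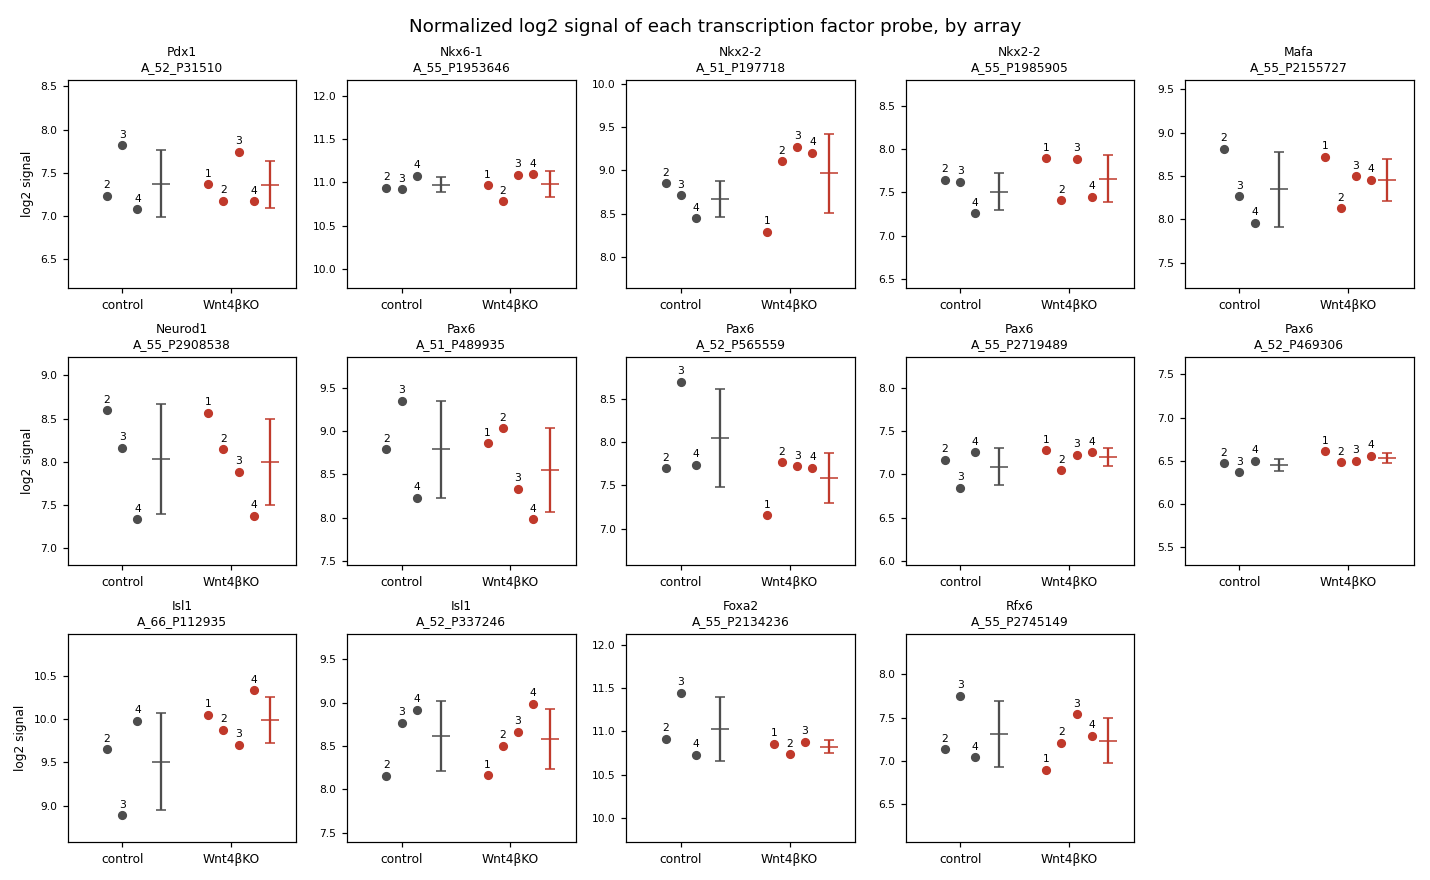
Normalised log2 signal of the 14 probes of the 9 transcription factors on each array, with controls and Wnt4βKO side by side in each panel, the replicate number beside each point and the group mean ± SD at its right. All panels cover the same height in log2 units, and in every panel the groups overlap; Nkx6-1 and the dimmest Pax6 probe, A_52_P469306, vary least and Neurod1 and the brighter Pax6 and Isl1 probes vary most.

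Pax6, the paired and homeodomain factor of all islet endocrine cells that acts on insulin and glucagon genes, was read by 4 probes that gave different orders of the arrays. Probe A_51_P489935 gave 8.79, 9.35 and 8.23 in controls and 8.86, 9.03, 8.34 and 7.98 in Wnt4βKO, a difference of -0.24 ± 0.33 SE (95% interval -1.01 to 0.53, limma adjusted p = 0.924). Probe A_52_P565559 gave 7.70, 8.70 and 7.74 in controls and 7.15, 7.76, 7.72 and 7.70 in Wnt4βKO. On this probe 1 array of each group stood away from the rest, control replicate 3 above and Wnt4βKO replicate 1 below, and the other 5 values lay between 7.70 and 7.76. Its difference was -0.46 ± 0.27 SE (95% interval -1.10 to 0.18, limma adjusted p = 0.799), and without control replicate 3 it was -0.14.

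The other two Pax6 probes were dimmer and steadier. Probe A_55_P2719489 read 7.17, 6.85 and 7.26 in controls and 7.28, 7.05, 7.23 and 7.26 in Wnt4βKO, a difference of 0.11 ± 0.12 SE (95% interval -0.16 to 0.38, limma adjusted p = 0.896). Probe A_52_P469306 read 6.47, 6.37 and 6.50 in controls and 6.61, 6.48, 6.50 and 6.56 in Wnt4βKO, a difference of 0.09 ± 0.07 SE (95% interval -0.08 to 0.26, limma adjusted p = 0.866). Control replicate 3, the highest array on the 2 brighter Pax6 probes, was the lowest on these 2. The mean over the 4 probes differed by -0.12 between the groups (limma adjusted p = 0.875).

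Isl1, the LIM-homeodomain factor that works in a complex with LDB1, had the largest point estimate of the 14 probes, and its 2 probes did not share it. Probe A_66_P112935 read 9.65, 8.89 and 9.98 in controls and 10.05, 9.88, 9.70 and 10.33 in Wnt4βKO. Control replicate 3 was well below the other arrays, and control replicate 4 lay among the Wnt4βKO values. The means were 9.51 ± 0.56 (SD, n = 3) and 9.99 ± 0.27 (SD, n = 4), and the difference of 0.48 ± 0.27 SE (95% interval -0.14 to 1.10, limma adjusted p = 0.781) was 0.17 without control replicate 3 and 0.72 without control replicate 4, the latter with a limma unadjusted p of 0.0269 and an adjusted p of 0.647. Probe A_52_P337246 read 8.16, 8.77 and 8.92 in controls and 8.16, 8.50, 8.66 and 8.99 in Wnt4βKO, with the lowest values in control replicate 2 and Wnt4βKO replicate 1. There the difference was -0.04 ± 0.24 SE (95% interval -0.60 to 0.53, limma adjusted p = 0.987). The 2 Isl1 probes differed by 0.52 log2 units, and many splits of the arrays gave a difference as large (exact permutation test over 35 splits, two-sided p = 0.4). Over the 8 pairs of probes for 1 gene compared in this way, every Benjamini-Hochberg adjusted p was 0.857. The smallest unadjusted p the design allows was 0.0571, above the threshold used here. The test could therefore call no pair different, and whether the Isl1 probes disagree is not decided by it.

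Foxa2, a forkhead factor that opens chromatin and acts upstream of Pdx1, read 10.91, 11.45 and 10.73 in controls and 10.86, 10.73 and 10.88 in Wnt4βKO replicates 1 to 3. The spot of Wnt4βKO replicate 4 was flagged by the scanner software as non-uniform or an outlier and was treated as missing, so this fit used 6 arrays. Control replicate 3 was the highest array, and the difference of -0.21 ± 0.19 SE (95% interval -0.66 to 0.25, limma adjusted p = 0.886) became 0.0036 without it. Rfx6, a winged-helix factor that follows Neurog3 in endocrine development and maintains the adult β-cell, read 7.14, 7.75 and 7.04 in controls and 6.90, 7.21, 7.54 and 7.29 in Wnt4βKO. Its highest value was again control replicate 3, and the difference was -0.08 ± 0.21 SE (95% interval -0.56 to 0.41, limma adjusted p = 0.967).

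**Figure D2:**
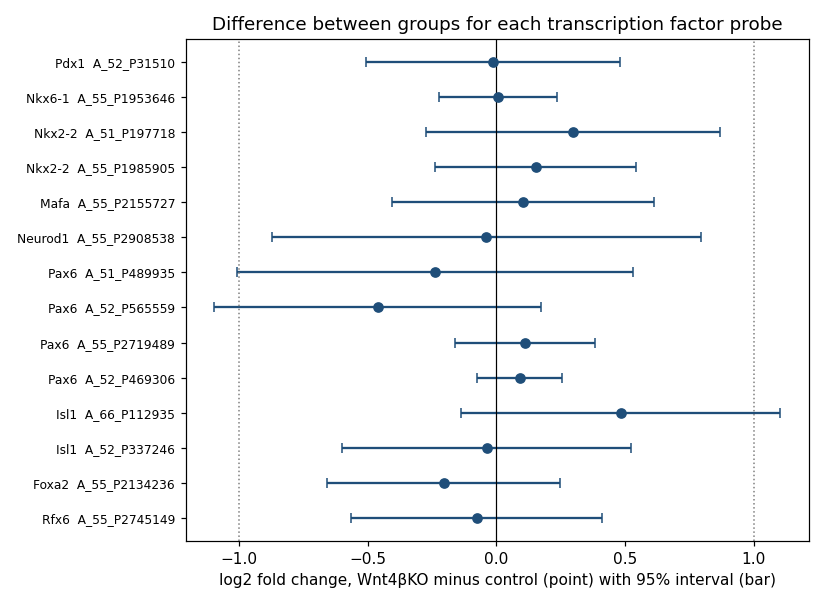
Log2 difference of Wnt4βKO minus control (horizontal axis) for each of the 14 probes, with its 95% interval from the limma fit and dotted lines at a 2-fold change in either direction. All 14 intervals include 0, and those of Isl1 A_66_P112935, Pax6 A_51_P489935 and Pax6 A_52_P565559 extend past a 2-fold change.

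Across the 14 probes, 7 point estimates were above 0 and 7 below it, with a median of -0.0033 against 0.0027 over all 26151 tested probes. At an unadjusted limma p below 0.05, 0 of the 14 passed, where 6.96% of all tested probes did. At an adjusted p below 0.05, 0 of the 14 passed, where 0.0153% of all tested probes did. No probe of the 9 factors had groups that did not overlap, against 7.24% of all tested probes. The median size of the difference, without its sign, was 0.109 for the 14 probes and 0.0929 for all tested probes.

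How large a change these arrays could still hide differed between the factors. The 95% interval lay within 1 log2 unit of 0, a 2-fold change, for 11 of the 14 probes (78.6%), against 95% of all tested probes. With 1 probe a gene, 7 of the 9 factors kept such an interval, the exceptions being Pax6 and Isl1. The narrowest intervals were those of Pax6 A_52_P469306 and Nkx6-1, and the widest was that of Neurod1, already given. That Pax6 probe was dim (mean 6.50), and the offset added to every signal shrinks the log2 differences of dim probes. With an offset of 0 its difference was 0.20 ± 0.19 SE, against 0.09 ± 0.07 SE. For Nkx6-1 the difference stayed near 0.007, with an SE of 0.19 against 0.10. The SE with an offset of 0 was 0.30 against 0.21 for Pdx1 and 0.31 against 0.21 for Rfx6. Intervals of dim probes, which the share of all tested probes includes, therefore do not bound the change in transcript.

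The wide intervals reflected the spread between samples of one group. With 1 array per sample, differences between mice and noise of a probe or array cannot be told apart. The median residual SD was 0.327 log2 units for the 14 probes and 0.160 for all tested probes, and 11 of the 14 lay above the 50th percentile. Set against probes within 0.25 log2 units of their own brightness, again 11 of 14 varied more than the median, from Nkx2-2 A_55_P1985905 (above 54.1% of such probes) to Neurod1 (above 95.3%). The 3 that varied less were Pax6 A_55_P2719489, Nkx6-1 and Pax6 A_52_P469306. The probes share the 7 RNA samples, so this is a description of these samples and not of the factors in general.

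The arrays did not keep one order across the factors. Control replicate 3 was the highest array for Pdx1, Foxa2, Rfx6 and the 2 brighter Pax6 probes, and the lowest for the other two Pax6 probes and for Isl1 A_66_P112935. Control replicate 4 was the lowest array for 5 of the 14 probes and the highest for none. Wnt4βKO replicate 1, the array with the least acinar signal, was the highest for 3 probes and the lowest for 3. Fitting the acinar mean as a covariate left 0 of the 14 probes past an adjusted p of 0.05, and 1, Nkx2-2 A_51_P197718, past an unadjusted p of 0.05 (difference 0.77, limma unadjusted p = 0.0285, adjusted p = 1). In that fit 2 of all tested probes passed the adjusted threshold and 603 the unadjusted one.

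**Figure D3:**
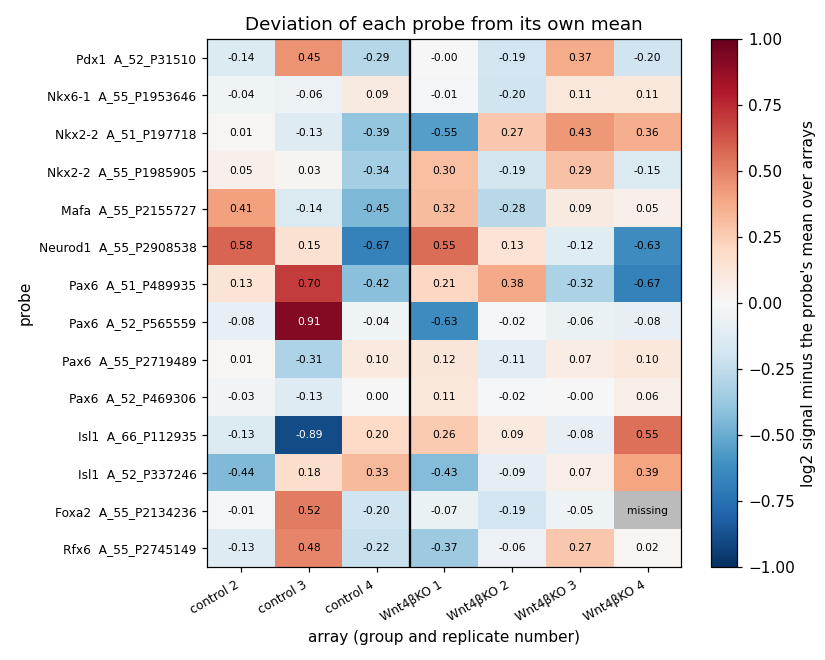
Deviation of each array (columns, controls then Wnt4βKO) from the mean of all arrays for each of the 14 probes (rows), in log2 units on a colour scale. Control replicate 3 is high for Pdx1, Foxa2, Rfx6 and 2 Pax6 probes and low for Isl1 A_66_P112935, and the missing Foxa2 spot is grey.

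Profiles over the arrays were next set beside those of 131 genes from the lists of other islet regulators, partners, targets and markers, by the root mean square difference of the centred log2 values. The nearest profile to Rfx6 was that of Meis1, a homeodomain factor, at 0.0830 log2 units, and the nearest to Nkx2-2 was that of Insm1, a zinc-finger factor of endocrine cells, at 0.189. Pdx1 lay nearest to Kcnj11 at 0.160 and Foxa2 to Abcc8 at 0.157 (over 6 arrays), which encode the pore and the sulfonylurea receptor of the β-cell KATP channel. Pax6 (A_51_P489935) lay nearest to Iapp, the gene of islet amyloid polypeptide, at 0.158. The distances were larger for Mafa with Sst (0.197), Isl1 with Smarca4 (0.2295) and Neurod1 with Ttr (0.255, over 5 arrays). Nkx6-1 hardly varied, with an SD of 0.114, and its nearest gene was Pklr at 0.0865. These likenesses are descriptive, were picked as the smallest of 131, and include the differences between samples of 1 group.

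Of 29 other transcription factors of the islet lineage, 25 were bright enough to test, and Foxa1, Pax4, Onecut1 and Bach2 were not. At an unadjusted limma p below 0.05, 2 were higher in Wnt4βKO, which held for 4.51% of all tested genes, and 2 were lower, which held for 4.43%. Together these 4 were 16.0% of the factors tested, against 8.94% of all genes, and the count was 0 with the acinar mean as a covariate, 1 with the replicate block, 2 with median scaling, array weights or the scanner's processed signal, 2 without control replicate 4 and 1 without Wnt4βKO replicate 4. Over all tested probes the unadjusted count also moved, from 1821 to 603 with the acinar covariate, 1563 with the replicate block and 770 with median scaling. It was 1949 with array weights and 1774 with the scanner's processed signal. Of the 25 factors tested, 0 passed the adjusted threshold, which 0.022% of all genes did. St18, a zinc-finger factor, read 9.64, 9.39 and 9.25 in controls and 10.09, 9.67, 9.64 and 9.83 in Wnt4βKO (difference 0.38 ± 0.14 SE, limma adjusted p = 0.670). Ptf1a, which drives acinar cells and is also one of the acinar markers, read 7.69, 8.37 and 7.63 in controls and 6.10, 6.91, 7.20 and 6.40 in Wnt4βKO, with no overlap between groups, which held for 8.36% of all genes (difference -1.25 ± 0.30 SE, limma adjusted p = 0.496). Gata4, a zinc-finger factor of early pancreas, differed by -0.24 ± 0.09 SE (limma adjusted p = 0.670), with overlapping groups. Its probe was dim (mean 6.14, well above background on 5 of 7 arrays), so the size of this difference depends on the offset. The Gata4 difference was -0.88 ± 0.29 SE with an offset of 0 and -1.62 ± 0.52 SE with the scanner's processed signal. With the acinar mean as a covariate, to which Ptf1a itself contributes, the differences were -0.65 for Ptf1a, 0.15 for St18 and -0.096 for Gata4 (limma adjusted p = 1 for each).

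Of 6 tested factors of α- and δ-cells, 0 passed an unadjusted p of 0.05, a threshold that 8.94% of all genes passed, so a list of this size says little. Their median difference was 0.062. Of 17 cofactors and partners, among them LDB1 for ISL1, 1 passed the unadjusted threshold (5.88%, against 8.94% of all genes). That gene was Lhx1, another LIM-homeodomain factor that binds LDB1, with a difference of 0.43 ± 0.13 SE (limma adjusted p = 0.612). The count of 1 was 0 with the acinar covariate, with the replicate block and without control replicate 4, 2 without control replicate 2, control replicate 3 or Wnt4βKO replicate 1, and 3 without Wnt4βKO replicate 3. Over all tested probes it went from 1821 to 603 with the acinar covariate and to 1563 with the replicate block.

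Among 28 genes that these factors are known to act on, Nkx6-1 and Mafa themselves included, 5 passed an unadjusted p of 0.05 (17.9%, against 8.94% of all genes), and Slc2a2 alone passed the adjusted threshold, which 0.022% of all genes did. The count of 5 was 1 with the acinar covariate, 2 with median scaling, and 3 without control replicate 2 or without Wnt4βKO replicate 3. Over all tested probes the unadjusted count fell from 1821 to 603 with the acinar covariate and to 770 with median scaling. Slc2a2, whose promoter is printed above, read 9.94, 9.95 and 9.85 in controls and 8.17, 8.41, 8.34 and 8.58 in Wnt4βKO, with a wide gap between the groups. It fell to 34.5% of control (log2 difference -1.54, 95% interval -1.78 to -1.29, limma adjusted p = 0.00877). The difference stayed between -1.70 and -1.47 under every alternative, but the adjusted call was lost with the replicate block (limma adjusted p = 0.550), the acinar covariate (0.458), median scaling (0.179) and the scanner's processed signal (0.0938), and without control replicate 2 (0.118), control replicate 3 (0.108), control replicate 4 (0.0776) or Wnt4βKO replicate 3 (0.0650). On the same arrays Pdx1 was at 99.1% of control, with a 95% interval of 0.704-fold to 1.40-fold. With an offset of 0 the Pdx1 difference was -0.0099 ± 0.30 SE, and with the scanner's processed signal it was 0.15 ± 0.34 SE. The interval therefore depends on the offset and does not bound the change in Pdx1 transcript. Whether PDX1 protein or its activity bears on the Slc2a2 difference was not tested.

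The other targets past the unadjusted threshold were Cdkn1c, a cell-cycle inhibitor (difference 0.36 ± 0.11 SE, limma adjusted p = 0.616), Ero1b, an oxidase that helps proinsulin fold (-0.86 ± 0.28 SE, limma adjusted p = 0.629, and -0.48 with the acinar covariate), Ins1 (0.29 ± 0.10 SE, limma adjusted p = 0.632) and Glp1r, the receptor of the incretin GLP-1 (-0.47 ± 0.18 SE, limma adjusted p = 0.670). Ins1 read 15.26, 15.26 and 15.06 in controls and 15.59, 15.33, 15.59 and 15.42 in Wnt4βKO, with no overlap. Near the top of the scale its quantile-normalized value follows its rank among the brightest probes, acinar genes included. Its difference was -0.03 after cyclic loess scaling, 0.17 with the scanner's processed signal and 0.14 with median scaling. Without background correction it was 0.29. Ins2 was the brightest probe on 5 of the 7 arrays, where quantile normalization sets it to 1 common value of 15.82, so a difference in Ins2 could not be measured on this scale. The median over the 28 targets was -0.028 and over the 9 factors, with 1 probe each, -0.013.

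**Figure D4:**
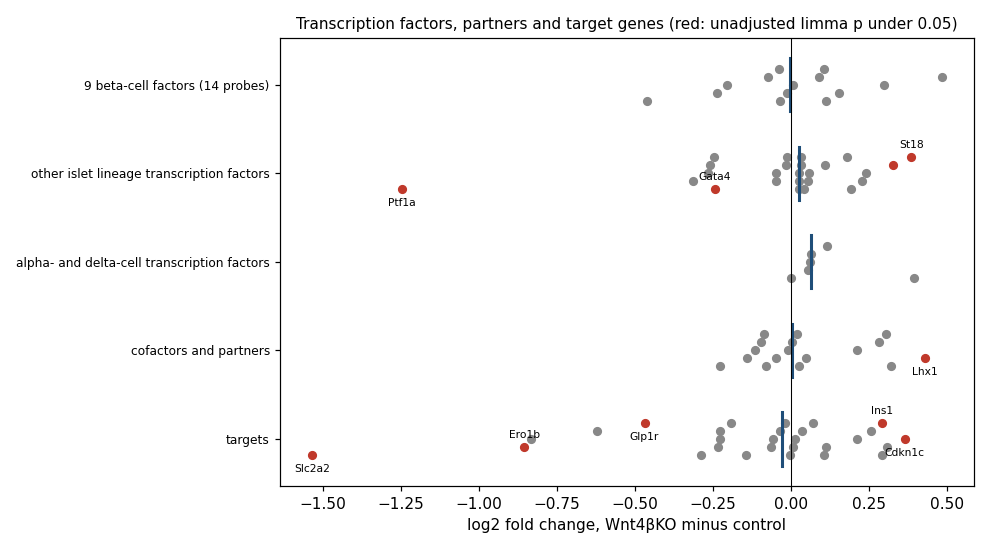
Log2 difference of Wnt4βKO minus control for the 14 probes of the 9 factors and for each tested gene of the lists of related regulators, partners and targets, with a bar at each median. Points are staggered in height for legibility, and red marks an unadjusted limma p below 0.05. Slc2a2 among the targets and Ptf1a among the other lineage factors lie farthest from 0, at -1.54 and -1.25, and the medians lie close to 0.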

How the data were processed

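Islet RNA of 3 control and 4 Wnt4βKO samples was labelled with Cy3 (50 ng each) and hybridised to 1 Agilent array per sample. The authors deposited scanner output of Agilent Feature Extraction 12.0.1.1 (per the file headers), with spot intensity on a linear scale, not normalized between arrays. The authors' methods name normexp at an offset of 50, quantile normalization and limma, which were followed here in limma 3.58.1 under R 4.3.3. The scanner files used here hold the median and not the mean spot signal, so the median signal and median local background were used. The authors also deposited a value table on a log2 scale. It held 8 of the 14 probes of the 9 factors. Its columns correlated with their own arrays at 0.775 to 0.79, but after centring each probe only 2 of the 7 columns correlated best with their own array. It was therefore not used, and how its columns match the arrays stays unknown. One control sample was left out by the authors after quality tests.

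After background correction, control spots were dropped and flagged spots were set to missing (1 value among the 14 probes). Quantile normalization followed, and repeated spots were then averaged. A probe entered the test when at least 3 of 7 arrays read it well above background, which kept 26151 of 56605. Wnt4βKO minus control was fitted with lmFit and eBayes, two-sided, with no block and Benjamini-Hochberg adjustment over all tested probes, and 95% intervals came from the same fit. A threshold of 0.05 was used. Log2 signals, differences and SDs are all on this scale. The number of arrays limits the precision, and the limma p-values weigh each difference against the spread between these samples, moderated over all tested probes. Probes were named by accession through a RefSeq table of assembly GRCm38.p6 (32994 probes, 58.3%), and promoter sequences came from RefSeq on the same assembly. In lists, the brightest tested probe stood for a gene.

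Named genes were all 9 factors with every probe, Wnt4, up to 6 genes of each list of regulators, partners and targets with the smallest unadjusted p below 0.05 (marker lists are given as counts), Ins1, Ins2 and Slc2a2 always, and the nearest list gene to each factor. Some genes that this rule names are not reported here. The members and lists were chosen with earlier results of these data known. The fit was tested on simulated data. Alternatives were other background corrections, scalings and filters, a trended and robust variance, array weights, blocks for replicate number and slide row, the acinar mean as a covariate, each array left out in turn and, chosen after seeing the data, flagged spots kept and the mean local background.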

Additional observations from a re-analysis of the deposited data

Results flagged for a closer look

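A value far from the others of its group was looked for among the 4 Wnt4βKO arrays with Dixon's ratio, the gap to the nearest value over the range. Of 36 items examined, which were probes and means over gene lists, 3 exceeded its critical value, and chance flags about 1 in 20. All 3 flagged items were probes. Among the β-cell transcription factors this was Pax6 A_52_P565559 (ratio 0.894), where Wnt4βKO replicate 1 read 7.15 and the others 7.70, 7.72 and 7.76. The same array was the low one for the target Glp1r (ratio 0.924), at 6.92 against 7.10, 7.11 and 7.11. For Ins2 (ratio 1) Wnt4βKO replicate 3 read 15.67 and the others all read 15.82. Quantile normalization gives the brightest probe of every array the same value, so these ties carry no order.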

How the results depend on the processing

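Over 21 alternatives, 0 of the 294 values for the 14 transcription factor probes passed an adjusted limma p of 0.05, 5 passed an unadjusted p of 0.05 and 32 had the opposite sign to the reported difference. With the replicate number as a block, 2 of the 14 probes passed the unadjusted threshold, as did 1563 of all tested probes. The 2 were Nkx2-2 A_51_P197718 (0.52, limma adjusted p = 0.807) and Isl1 A_66_P112935 (0.46, limma adjusted p = 0.808). With the acinar mean as a covariate, 1 of the 14 passed it, as did 603 of all tested probes. Nothing in the labels pairs the samples by number, and the deviations of same-numbered samples correlated at -0.132, 0.23 and -0.00798.

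Signs that turned were these. With the scanner's processed signal, scaled at the 75th percentile, Pdx1 was 0.15, Foxa2 0.12, Isl1 A_52_P337246 0.013 and Pax6 A_55_P2719489 -0.070. Cyclic loess gave Nkx6-1 -0.0055, Ins1 -0.029 and Ins2 -0.10, and array weights gave Ins2 -0.0060. The replicate block gave Isl1 A_52_P337246 0.10, Rfx6 0.035 and Ins2 -1.32e-05, and the slide row as a block gave Pdx1 0.035 and Ins2 -1.19e-05. With the acinar mean as a covariate, Pdx1 was 0.049, Nkx6-1 -0.065, Mafa -0.10, Isl1 A_52_P337246 0.023, Rfx6 0.15 and Ins2 -0.049. Leaving out 1 array at a time, the ranges that crossed 0 were -0.16 to 0.21 for Pdx1, -0.029 to 0.073 for Nkx6-1, -0.087 to 0.34 for Mafa, -0.39 to 0.24 for Neurod1, -0.52 to 0.042 for Pax6 A_51_P489935, -0.0088 to 0.19 for Pax6 A_55_P2719489, -0.27 to 0.12 for Isl1 A_52_P337246, -0.36 to 0.0036 for Foxa2, -0.21 to 0.15 for Rfx6 and -0.038 to 0.051 for Ins2. The cause of these turns was not tested. Apart from the cyclic loess value, which was not quantile normalized, these Ins2 values are held near 0 by the common value that quantile normalization gives the brightest probe.

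Among all tested probes, 4 passed the adjusted threshold. That count was 7 with the processed signal, 2 with the replicate block, 2 with the acinar covariate and 2 to 5 when 1 array was left out. At an unadjusted p of 0.05, 1821 passed, against 770 with median scaling, 2909 without the filter on dim probes and 603 with the acinar covariate. Among the 14, 0 to 1 passed that threshold when 1 array was left out. With 3 and 4 arrays a group, only wide changes of the more variable factors could be seen.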
